A study of Danio rerio with 57 samples.

Results

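H3K9me3, trimethylation of lysine 9 on histone H3, was compared between zebrafish embryos at 4.5 and 4 hours post fertilisation (hpf), on chromosomes 2 to 9 and 15 to 25. The values are positions of marked regions from CUT&RUN, in which an antibody against the mark directs a nuclease to release the DNA around marked nucleosomes. The 4.5 hpf group and the 4 hpf group were 3 libraries each of whole embryos of genotype AB, made with the same H3K9me3 antibody (Abcam 8898) and with an E. coli DNA spike-in. The authors deposited one list of regions per time point, which names no library, so each time is one pooled list without a replicate. The 4.5 hpf list is named only for its time, at which a second experiment of the series also took embryos, with antibodies of 3 suppliers, so which libraries entered it is not known. The remaining 6 chromosomes were set aside because the 4.5 hpf list is not uniform there. Regions that touch were merged, which left 25986 regions at 4.5 hpf and 37073 at 4 hpf. Together these are 63059 regions, beside 190029 deposited in the 6 lists of the series.

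H3K9me3 is the mark of constitutive heterochromatin, the compact and mostly silent chromatin over repeats, transposable elements and pericentromeric DNA. It is written by SUV39 and SETDB1 methyltransferases and read by HP1 proteins, which can recruit further methyltransferase, so that a marked stretch can grow into its neighbourhood. The zebrafish embryo starts with little of it and builds it up around zygotic genome activation, and the interval between these time points follows the main wave of that activation and ends near the start of epiboly. The lists are of a whole embryo, so a region marked in fewer cells cannot be told apart from one marked less in each cell. Read depth is not known, and a place missing from a list may carry the mark below the level the authors' procedure reported. The words lost and new are used here for listing only.

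The lists were spaced differently. On the 19 chromosomes no region at 4.5 hpf lay closer than 500 bp to its neighbour. At 4 hpf 1826 deposited regions touched the previous one and another 444 lay within 499 bp of it. The 3.5 hpf list resembled the 4 hpf list in this respect, with 1746 touching pairs. The 2 hpf list had no touching pair, and its smallest gap was 500 bp. Spacing also differed within the 4.5 hpf list. On chromosomes 1 and 10 to 13, which were set aside, it had 331 touching pairs and 82 gaps of 1 to 499 bp. Its median deposited signal was 643 there and 126.3 on the 19 chromosomes. The reason for the different spacing was not given in the sources used here. Several values that it can move are therefore also given after regions within 500 bp were joined in both lists. Values by width class and the parts of the length gained and lost are given without joining only.

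The 4.5 hpf list held fewer narrow regions and slightly more wide ones. Regions under 500 bp numbered 901 at 4.5 hpf and 4205 at 4 hpf, each width class including its lower bound. Regions of 500 bp to 1 kb numbered 6261 at 4.5 hpf and 12928 at 4 hpf, and regions of 1 to 2 kb numbered 7757 at 4.5 hpf and 9420 at 4 hpf. Above 2 kb the order was the other way round. There were 7789 regions of 2 to 5 kb at 4.5 hpf and 7512 at 4 hpf, and 2709 regions of 5 to 10 kb at 4.5 hpf and 2521 at 4 hpf. The 4.5 hpf list held 569 regions of at least 10 kb, spanning 8.27 Mb, and the 4 hpf list 487, spanning 6.88 Mb. The length covered by regions of any width was 66.7 Mb at 4.5 hpf against 71.4 Mb at 4 hpf, a ratio of 0.935. The lower total lay in the regions under 2 kb. With only regions of at least 1000 bp counted, the ratio was 1.02.

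**Figure D1:**
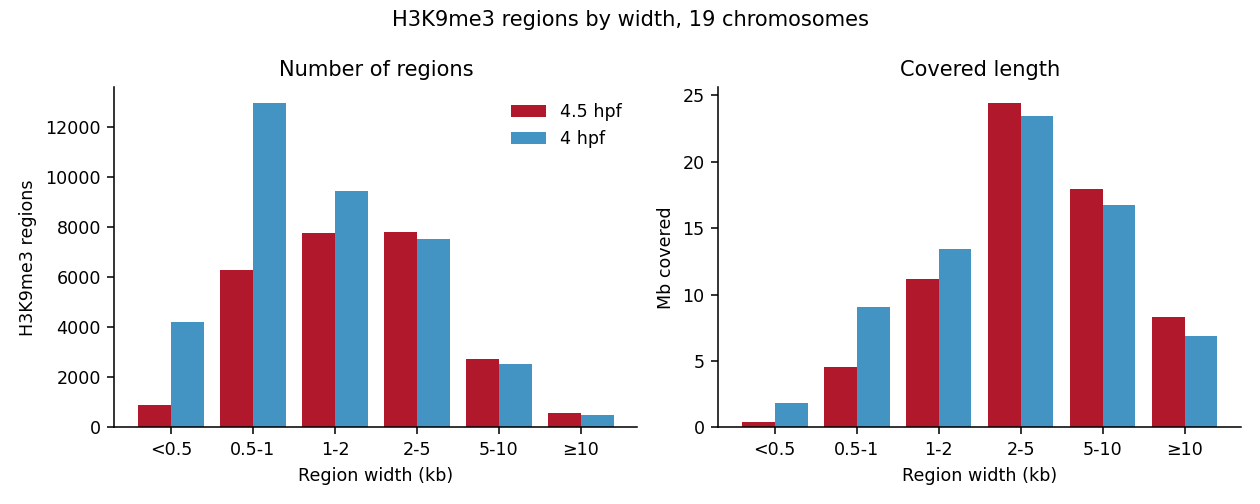
Number of H3K9me3 regions (left) and length they cover in Mb (right) by region width in kb, for the pooled 4.5 hpf list (red) and the pooled 4 hpf list (blue) on 19 chromosomes. Below 2 kb the 4.5 hpf bars are the lower ones, and from 2 kb upward they are slightly the higher ones, with 569 regions of at least 10 kb at 4.5 hpf and 487 at 4 hpf.

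Of the 37073 regions at 4 hpf, 22354 were found again at 4.5 hpf, meaning that at least 1 bp of them was covered. This is 60.3% of all regions compared (Wilson 95% interval 59.8 to 60.8, which covers counting of regions only and treats neighbours as independent). The other 14719 regions were lost. Most of the regions found again were matched singly, by 1 region at 4.5 hpf that overlapped no other. There were 20342 of these. Another 1701 regions, 4.59%, lay under a fused region, which is a 4.5 hpf region over at least 2 earlier ones, and 311 regions, 0.839%, were split, being covered by 2 or more separate 4.5 hpf regions none of which was fused. Among the 1701 under a fused region, 48 also had 2 or more regions over them. Seen from the later list, 817 regions at 4.5 hpf were fused (3.14%) and 4150 were new (16.0%), with no base in common with the 4 hpf list. When only regions named primary by the authors entered, which left 3217 at 4.5 hpf and 11842 at 4 hpf, 23.4% of the 4 hpf regions were found again. The small number at 4.5 hpf limits that share.

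Width separated the regions that were lost from those found again. Of the regions under 500 bp at 4 hpf, 22.9% were found at 4.5 hpf (21.7 to 24.2), and of those of 500 bp to 1 kb 39.9% (39.1 to 40.8). The share was 69.7% at 1 to 2 kb and 89.7% at 2 to 5 kb. It reached 96.8% at 5 to 10 kb and 98.6% at 10 kb or more, where 7 of 487 regions were lost. A wider region offers more bases to overlap, so part of this order is built into the rule. The median width of lost regions was 658 bp, and that of regions found again, measured at 4 hpf, was 1707.5 bp. New regions were also narrow, with a median of 768.5 bp and 561 of the 4150 under 500 bp and another 2196 under 1 kb. None of the 569 regions of at least 10 kb at 4.5 hpf was new.

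**Figure D2:**
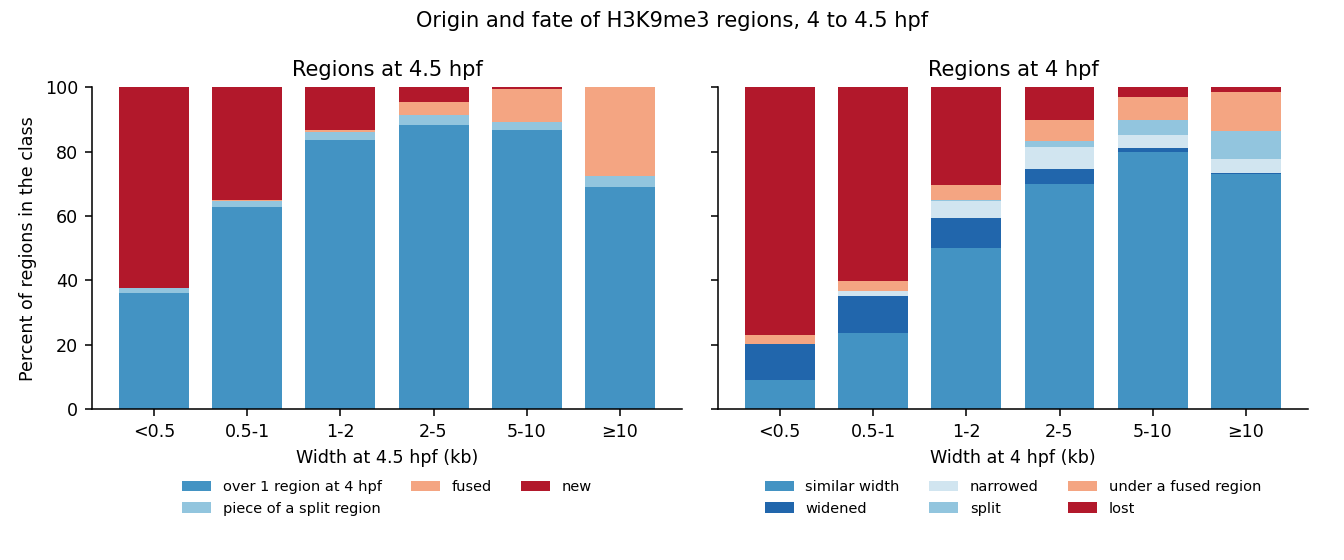
Share of regions (percent, stacked) in each class by width in kb: left, origin of the 4.5 hpf regions; right, fate of the 4 hpf regions. Lost regions (dark red, right) make up 77.1% of the class under 500 bp and 60.1% of that of 500 bp to 1 kb. New regions (dark red, left) make up 62.3% and 35.1% of these classes. Of the 4 hpf regions of 5 to 10 kb, 80.0% kept a similar width.

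The median width was larger in the later list, 1673 bp at 4.5 hpf against 1095 bp at 4 hpf, whereas the regions present at both times differed less. The 4 hpf regions that were found again already had a median of 1707.5 bp at 4 hpf. The 20342 singly matched regions had a median of 1878 bp at 4.5 hpf and 1688 bp at 4 hpf. Their median ratio of widths, 4.5 hpf over 4 hpf, was 1.05, with the middle 50% of regions between 0.936 and 1.29. By this ratio, 12596 of them were longer at 4.5 hpf, 7667 were shorter and 79 were equal. The net change over all of them was 3.40 Mb, as 4.5 minus 4 hpf. Both edges lay further out at 4.5 hpf in 7847 regions and further in in 3787.

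Among the singly matched regions, 3225 were widened, by at least 1.5-fold, which is 15.9% of them, and 1329 or 6.53% were narrowed by as much. Another 15788 kept a similar width. By 4 hpf width, widening was most frequent in narrow regions. Of singly matched regions under 500 bp at 4 hpf, 54.1% were widened, and the median of the class was 708 bp at 4.5 hpf against 456 bp at 4 hpf. Of those of 2 to 5 kb 5.71% were widened, and the medians were 3057 bp at 4.5 hpf against 2979 bp at 4 hpf. Among the 379 of at least 10 kb, 1 was widened and 22 were narrowed, and the median ratio was 1.00. Sorting by the earlier width favours widening of narrow regions, and the order depended on it. Sorted by the geometric mean of both widths, 5.71% of singly matched regions under 500 bp were widened and 25.5% of those of 500 bp to 1 kb. The median ratio was then 1.05 under 500 bp, 1.16 at 500 bp to 1 kb, 1.09 at 1 to 2 kb, 1.03 at 2 to 5 kb and 1.01 at 5 to 10 kb. Sorted by 4.5 hpf width, the order turned round at the narrow end, with 0% widened and a median ratio of 0.816 under 500 bp, against 20.1% and 1.096 at 1 to 2 kb. The shortest region in either list was 251 bp, which limits 1.5-fold widening in the class under 500 bp under these 2 sortings. With only regions of at least 1000 bp in both lists, 10.004% of singly matched regions were widened.

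The 5 singly matched regions of at least 1000 bp with the largest gain lay on chromosomes 4, 19 and 17. The first, at chromosome 4, 31004712 to 31012135, lay under a region of 21.1 kb at 4.5 hpf and was itself 7.42 kb long at 4 hpf, a ratio of 2.85. The lists of 3 and 3.5 hpf had held 17.3% and 70.7% of its 4 hpf length. Part of the stretch gained had also been listed before 4 hpf. On the side of higher positions, the gain ran from 3.712 to 12.055 kb from the centre. There the 3.5 hpf list had held 4.893 to 11.32 kb, and the 3 hpf list 4.974 to 5.991 and 7.575 to 10.617 kb. On the other side the gained stretch was in no earlier list. At chromosome 19, 19913123 to 19914439, a region of 12.1 kb at 4.5 hpf lay over one of 1.32 kb at 4 hpf, a 9.16-fold ratio. At chromosome 19, 16893468 to 16896997, the later region had 13012 bp against 3530 bp at 4 hpf. A place on chromosome 17, 50044254 to 50047070, spanned 12049 bp in the later list against 2817 bp at 4 hpf. Its 4 hpf stretch was in no list before that. Earlier listing of the stretch gained there is not given here. On chromosome 4, a region of 17972 bp at 4.5 hpf lay over one of 9482 bp at 4 hpf, 32129575 to 32139056.

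The largest reductions among singly matched regions left wide regions behind. At chromosome 5, 70597043 to 70623549, the region was 14.5 kb at 4.5 hpf and 26.5 kb at 4 hpf. Its 4 hpf stretch had been listed to 42.2% and 63.3% at 3 and 3.5 hpf. At chromosome 18, 30106477 to 30127747, it was 10.6 kb at 4.5 hpf and 21.3 kb at 4 hpf. On chromosome 9, between 22030338 and 22048834, the later region had 11.4 kb against 18.5 kb at 4 hpf. On chromosome 2, between 14122540 and 14142388, the widths were 12.8 kb at 4.5 hpf against 19.8 kb at 4 hpf, and on chromosome 22, between 27916052 and 27931825, they were 8.76 kb at 4.5 hpf against 15.8 kb at 4 hpf. In each of these 5 the remaining region ended within the old bounds and held 50.01% to 64.5% of the 4 hpf length.

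Fusion was uncommon and mostly joined pairs. Of the 817 fused regions at 4.5 hpf, 759 (92.9%) lay over 2 regions of 4 hpf, 48 over 3, 9 over 4 and 1 over 5. Their median width was 5223 bp, and the 886 gaps they bridged had a median of 921 bp. Of these gaps 238 were under 500 bp, closer than any spacing in the 4.5 hpf list on the 19 chromosomes. After regions within 500 bp were joined in both lists, 593 fused regions remained over 1238 earlier ones. In the 50% of each list with the lowest deposited p-values there were 114, and with regions named primary alone 16. Both selections also cut the 4 hpf list, to 18577 regions by p-value and 11842 by name. A region then counts as fused only if at least 2 earlier regions are left under it. The selection by name removes most fused regions, as it does most others. Of the 817, 162 (19.8%) held a region named primary, against 14.2% of singly matched and 12.4% of all 4.5 hpf regions. The median p-value of fused regions was 0.740, against 0.452 for singly matched ones. How far the cut of each list lowers the number fused was not tested. Of the fused regions, 339 lay over 2 or more regions at 3.5 hpf as well, 374 lay over a single one and 104 over none.

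Short gaps were bridged more often than long ones. Over all neighbouring regions at 4 hpf, 886 of 37054 gaps were bridged (2.39%). The share was 53.6% for gaps under 500 bp, 19.2% at 500 bp to 1 kb, 7.98% at 1 to 2 kb, 1.89% at 2 to 5 kb and 0.0462% at 5 kb or more. In the step from 3.5 to 4 hpf it was 64.1% under 500 bp, 35.03% at 500 bp to 1 kb and 15.4% at 1 to 2 kb, higher in each of these classes than in the step to 4.5 hpf. On the 19 chromosomes the 4.5 hpf list had no gap under 500 bp and the 4 hpf list had 444. Shares in that class therefore depend on the spacing of the lists. Where both neighbours were still present at 4.5 hpf, 46.4% of gaps of 500 bp to 1 kb were bridged (42.3 to 50.6) and 21.3% of those of 1 to 2 kb (19.2 to 23.7). In the earlier step the corresponding shares were 53.6% (49.8 to 57.3) and 22.4% (20.5 to 24.3). In the other classes the share was higher in the later step. Under 500 bp it was 84.4% (79.7 to 88.2) in the later step against 79.6% (75.2 to 83.4) in the earlier one. At 2 to 5 kb it was 5.26% in the later step against 4.45%, and at 5 kb or more 0.131% against 0.0816%. These last shares are conditional on both neighbours being listed again, which was less frequent in the later step. No difference between the steps was tested, each time being one list. The longest gap bridged at 4.5 hpf was 6742 bp.

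The fused region with the most earlier regions under it lay at chromosome 16, 15671532 to 15685692, spanned 14.2 kb and joined 5 of them. The lists of 2, 2.5, 3, 3.5 and 4 hpf held 3.25%, 62.8%, 100%, 27.6% and 40.7% of its length, so that it had been listed whole at 3 hpf and in parts afterwards. The other 4 named joined 4 regions each. On chromosome 4, in a stretch of 32.6 kb between 35532622 and 35565247, the share listed at those 5 times was 0%, 3.37%, 4.10%, 26.8% and 54.8%. On chromosome 24, in 25.7 kb between 16920210 and 16945911, it was 4.65%, 6.27%, 19.8%, 41.6% and 59.6%. On chromosome 6, in 43.9 kb between 18003501 and 18047370, it was 1.39%, 21.9%, 36.7%, 56.5% and 86.8%. On chromosome 23, in 35.1 kb between 12568484 and 12603578, it was 13.8%, 44.6%, 67.3%, 83.6% and 94.7%. In these 4 stretches the listed share was higher at each later time, whereas on chromosome 16 it was not. Regions were picked for being fused at 4.5 hpf, so lower coverage before it follows in part from the choice.

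Splitting was the rarer counterpart, by a margin that depended on the spacing of the lists. On the 19 chromosomes the 4.5 hpf list had no gap under 500 bp, so no shorter opening appeared as a split. After regions within 500 bp were joined in both lists, 378 regions at 4 hpf were split (1.03%) and 1238 lay under a fused region (3.38%). Of the 311 regions split without joining, whose median width was 4974 bp at 4 hpf, 303 were covered by 2 regions at 4.5 hpf and 8 by 3. The 3 named ones each had 3 pieces. On chromosome 7, in a 16.1 kb region of 4 hpf between 393099 and 409178, the pieces made up 76.3% of the length. On chromosome 16, in 11.5 kb between 53630273 and 53641739, they made up 55.4%, and on chromosome 5, in 11.1 kb between 2409345 and 2420475, 80.9%. At 3.5 hpf, before they were listed whole, 76.2%, 49.1% and 82.96% of these lengths had been listed, in that order.

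**Figure D3:**
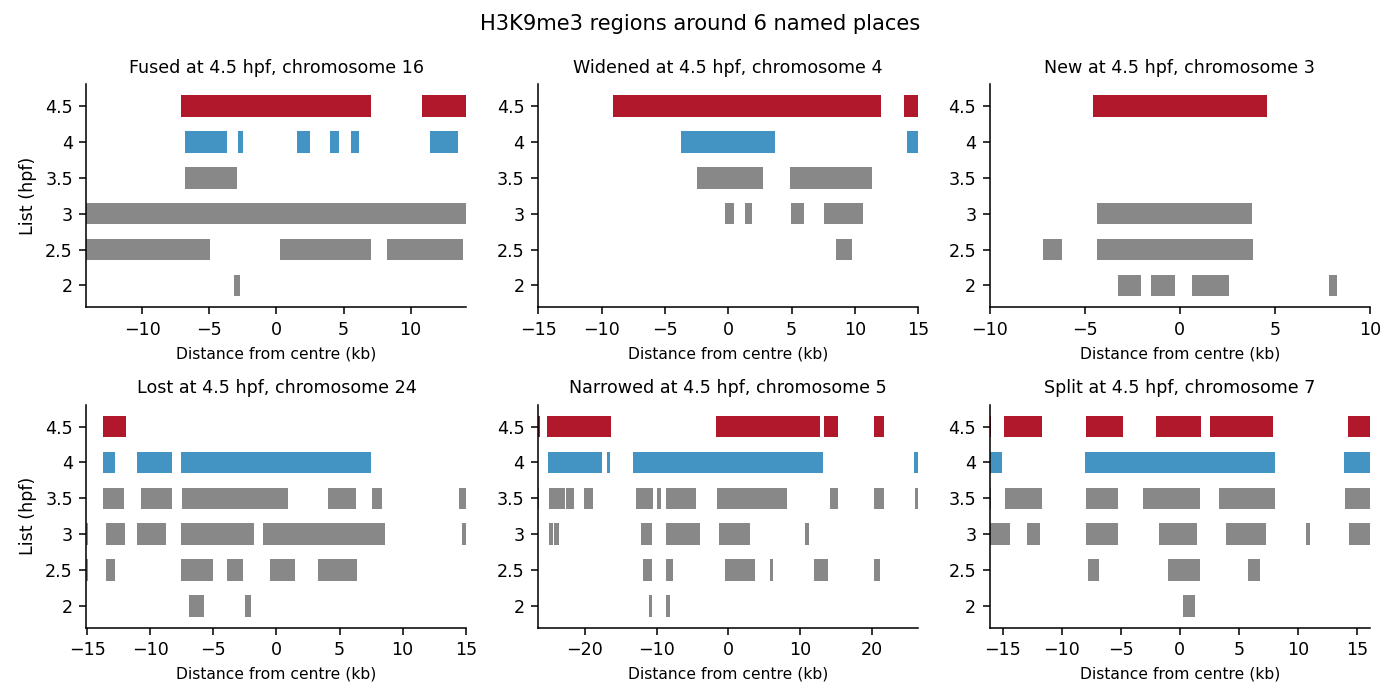
Regions of the 6 lists (2 to 4.5 hpf, bottom to top in each panel) as bars along the distance in kb from the centre of 1 place of each class; 4.5 hpf is red, 4 hpf blue and earlier times grey. Around the centre, the chromosome 16 panel has a single bar at 4.5 hpf over 5 bars at 4 hpf. The centre of the chromosome 3 panel is empty at 3.5 and 4 hpf, and that of the chromosome 24 panel at 4.5 hpf. Bars nearer the panel edges are neighbouring regions.

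Lost regions of great width were few. Of the 14719 lost regions, 87 were at least 5 kb wide, and together these made up 4.69% of the length of lost regions. Of the 87, 79 (90.8%) lay over a region at 3.5 hpf, against 99.1% of all 3008 regions of that width at 4 hpf, and 86 lay over one in some earlier list. On chromosome 4 lay 21 of them (24.1%), against 15.99% of all 4 hpf regions of that width. The widest lay at chromosome 24, 12527910 to 12542958, and spanned 15049 bp. The lists of 2, 2.5, 3 and 3.5 hpf had held 11.1%, 58.2%, 95.01% and 70.3% of it, and none of it was listed at 4.5 hpf, where the nearest region was 4.39 kb away. The 12.8 kb region at chromosome 9, 19971881 to 19984637, was listed to 83.3% at 3 hpf, not at all at 3.5 hpf, whole at 4 hpf and again not at all at 4.5 hpf. On chromosome 7, 11.8 kb between 64878664 and 64890460 were lost, of which 71.5% had been listed at 3.5 hpf. A pair of lost regions lay on chromosome 4. That at 28709972 to 28720951, 10980 bp long, lay 5.48 kb from the nearest 4.5 hpf region. That at 32011080 to 32021941, 10862 bp long, lay 9.39 kb from one. Of their lengths 70.4% and 40.1%, in that order, had been listed at 3.5 hpf.

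Few lost regions lay directly beside a region listed at 4.5 hpf. Their median distance to the nearest 4.5 hpf region was 8122 bp. Of the lost regions 1.37% lay within 500 bp of one and 37.0% within 5 kb. By definition a lost region overlaps none, and the median gap in the 4.5 hpf list was 17431 bp. Before the loss, lost regions had neighbours at much the same distance as the others. The nearest other 4 hpf region was at a median of 5509 bp from lost regions and 5026 bp from regions found again. Within a width class, distance to a neighbour went with the kept share in opposite ways. Of regions of 500 bp to 1 kb, 45.9% were found again when a neighbour lay within 1 kb and 39.9% when none lay within 20 kb. Of regions of 2 to 5 kb, 86.2% were found again with a neighbour within 1 kb and 93.5% with none within 20 kb.

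Whether a region had been listed before went with whether it was found again. Of the 4 hpf regions that lay over a 3.5 hpf region, 71.3% were found at 4.5 hpf (70.7 to 71.8), and of those that did not 36.7% (35.9 to 37.6). The difference was also seen within width classes, in which regions without an earlier listing were still the narrower ones, with a median of 629 bp at 500 bp to 1 kb against 724.5 to 765 bp for those listed before. At 500 bp to 1 kb the shares were 44.9% for regions over one at 3.5 hpf and 34.6% for the others, at 1 to 2 kb 72.3% and 59.2%, and at 2 to 5 kb 90.5% and 78.4%, in the same order. Regions over all 4 earlier lists were found again in 92.4% of cases, with a median width of 4684 bp, and regions over none in 36.5%, with a median of 599 bp. At 500 bp to 1 kb these shares were 62.7% of only 83 regions (51.9 to 72.3) and 35.6% of 5264. At 1 to 2 kb they were 73.7% and 61.8%, with 75.6% for regions over 3 earlier lists. Under 500 bp only 4 regions lay over all 4 lists, of which 1 was found again. The time of first listing gave no common order within width classes. Regions first listed at 2 and at 3.5 hpf were found again in 15.6% and 30.3% of cases under 500 bp. At 500 bp to 1 kb these were 44.7% and 43.6%, and at 2 to 5 kb 91.8% and 87.4%. Lost regions still included 216 that lay over a region in every earlier list. These shares are a description and were not tested.

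**Figure D4:**
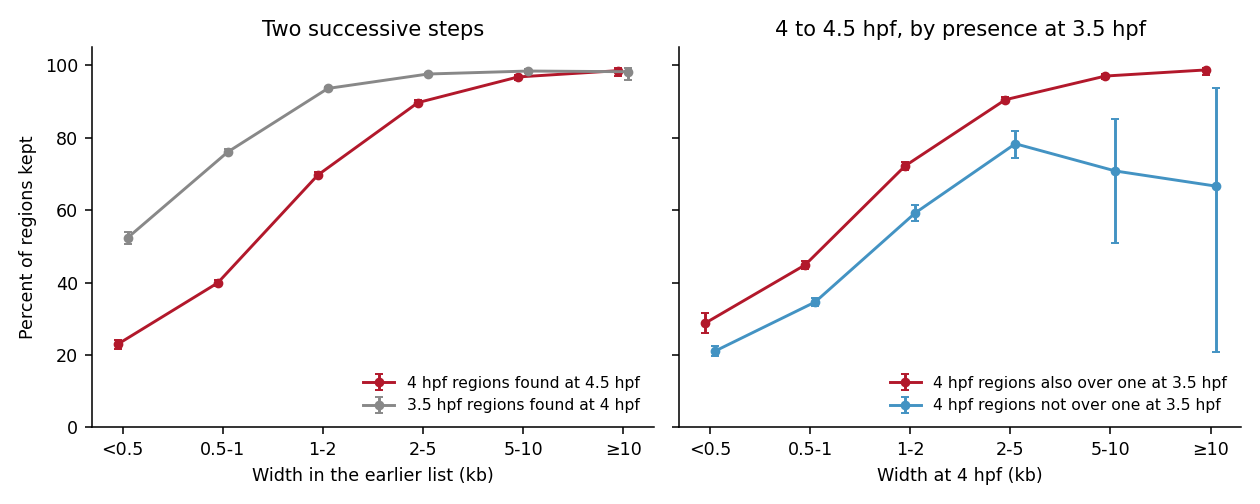
Percent of regions found again in the next list by width in kb, with Wilson 95% intervals over regions: left, 4 hpf regions at 4.5 hpf (red) and 3.5 hpf regions at 4 hpf (grey); right, 4 hpf regions at 4.5 hpf that lay over a 3.5 hpf region (red) or did not (blue). In the 500 bp to 1 kb class 39.9% were found at 4.5 hpf and 76.1% in the step before, while at 5 to 10 kb the shares were 96.8% at 4.5 hpf and 98.5% in the step before.

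The preceding step differed most in the narrow classes. Of all regions 60.3% were found again in the step to 4.5 hpf, against 83.4% in the step to 4 hpf. In regions under 500 bp the share was 22.9% in the later step and 52.4% in the earlier one. At 1 to 2 kb it was 69.7% in the later step against 93.6% in the earlier one, and at 5 to 10 kb 96.8% in the later step against 98.5% in the earlier one. New regions were 16.0% of the 4.5 hpf list and 31.8% of the 4 hpf list. Of singly matched regions, 15.9% were widened in the later step and 21.4% in the earlier one. Joining regions within 500 bp moved the shares over all widths little, to 60.3% found again in the later step and 83.5% in the earlier one. The steps share the 4 hpf list, and no difference between them was tested.

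The columns of the lists also separated the classes. Of 11842 regions at 4 hpf that contained a region named primary, 84.6% were found again, and of the 25231 without one 48.9%. Within the class of 1 to 2 kb the shares were 78.4% for primary and 59.7% for other regions, whose median widths were 1527 bp for primary and 1239 bp for other regions. At 5 to 10 kb they were 96.3% for primary and 96.9% for other regions. The median deposited signal of 4 hpf regions was 54 for lost ones and 171.4 for those found again. At 4.5 hpf it was 49.96 for new regions, 143.5 for singly matched ones and 414.5 for fused ones. Signal went with width, and its unit was not given in the sources used here. It is not compared between times. By the deposited p-value, the share found again was 87.3% in the 25% of 4 hpf regions with the lowest values, 65.3% and 40.04% in the next 25% steps and 48.5% in the last. At 500 bp to 1 kb the shares in the same order were 66.7%, 56.7%, 38.6% and 24.1%. The widest regions did not follow this order. Of the 4 hpf regions of at least 10 kb, 442 of 487 lay in the 25% of the list with the highest p-values, and 435 of these 442 were found again. What this p-value tests was not given in the sources used here.

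New regions at 4.5 hpf were mostly places without an earlier listing. Of the 4150, 3188 (76.8%) lay over no region at 2, 2.5, 3 or 3.5 hpf, and 697 (16.8%) lay over one at 3.5 hpf. Of the 4.5 hpf regions over a 4 hpf region these shares were 14.5% and 82.1%. Of the 5200 regions lost from 3.5 to 4 hpf, 1052 (20.2%) were listed again at 4.5 hpf, in new or in other regions. Among those of at least 2 kb these were 55 of 182 (30.2%), and among those of at least 5 kb 2 of 33 (6.06%). Of new regions of at least 2 kb, 160 of 365 (43.8%) lay over a region in some earlier list, and of the 17 of at least 5 kb, 12 did (70.6%). Of all 4.5 hpf regions, 92.8% of those of at least 2 kb and 98.2% of those of at least 5 kb did. A wider region has more bases with which to meet an earlier one. The widest new region, 9.13 kb at chromosome 3, 42445723 to 42454853, had been listed to 47.98%, 89.6% and 89.3% at 2, 2.5 and 3 hpf, and was not listed at 3.5 and 4 hpf. The 8.90 kb region at chromosome 9, 6533354 to 6542251, was in no earlier list. Of the 8.87 kb on chromosome 4 between 53368172 and 53377038, 95.5% had been listed at 3.5 hpf and none at 4 hpf. Of the 7.63 kb on chromosome 7 between 58591364 and 58598997, 18.1% had been listed at 3.5 hpf. A further region on chromosome 4, between 72903956 and 72911362 and 7.41 kb long, was in no earlier list and was the only one of these 5 to include a region named primary.

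In length, the lists shared 52.9 Mb, which is 79.3% of the 4.5 hpf length and 74.1% of the 4 hpf length. The 13.8 Mb covered at 4.5 hpf alone consisted of 8.59 Mb (62.3%) of outward extension of regions over an earlier one, 0.975 Mb (7.07%) of bridged gaps and 4.23 Mb (30.6%) of new regions. The 18.5 Mb covered at 4 hpf alone consisted of 13.3 Mb (72.1%) of lost regions, 4.82 Mb (26.1%) of trimmed edges and 0.344 Mb (1.86%) of inner openings. These openings lay in all regions with 2 or more 4.5 hpf regions over them, both split ones and those also under a fused region. In the step from 3.5 to 4 hpf, 22.7 Mb were gained and 7.51 Mb lost. Of the length lost after 4 hpf, 46.9% had been covered at 3.5 hpf and 55.0% in some earlier list. Of the length gained at 4.5 hpf, 2.04 Mb (14.8%) had been covered at 3.5 hpf and 2.76 Mb in some earlier list. As an alternative, the 4 hpf list alone was cut to the size of the 4.5 hpf list before merging, by dropping its regions with the highest p-values. Extension and bridged gaps then made up 25.5% of the gain, and the covered length was 1.60 times that of the cut 4 hpf list. Dropping regions from 4 hpf alone shifts these values by construction, and the widest 4 hpf regions are among those dropped.

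The difference between the times was alike on most chromosomes. All 19 had fewer regions at 4.5 hpf, with ratios of 4.5 hpf over 4 hpf between 0.674 on chromosome 24 and 0.753 on chromosome 4. All 19 had the larger median width at 4.5 hpf. The share of 4 hpf regions found again ran from 58.1% on chromosome 24 (55.5 to 60.6) to 66.7% on chromosome 4 (65.1 to 68.3), with a median of 59.7% over chromosomes. Covered length was lower at 4.5 hpf on 18 chromosomes, with the lowest ratio, 0.884, on chromosome 24. Chromosome 4 was the exception. Its listed share was 11.7% at 4.5 hpf against 10.8% at 4 hpf, a ratio of 1.08, and it held 189 of the 817 fused regions, 23.1%, beside 9.45% of all 4.5 hpf regions. Without chromosome 4 the covered length was 0.915 times that at 4 hpf and 628 fused regions were left.

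**Figure D5:**
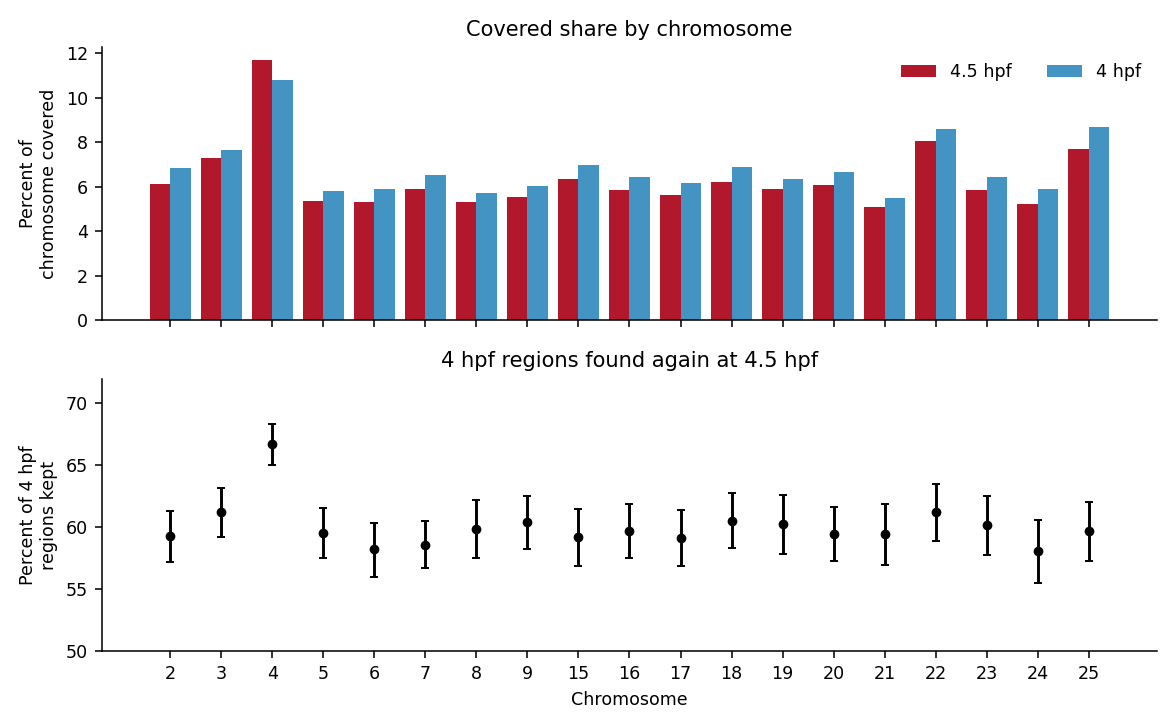
Upper panel, percent of each of 19 chromosomes covered by H3K9me3 regions at 4.5 hpf (red) and 4 hpf (blue); lower panel, percent of 4 hpf regions found again at 4.5 hpf with Wilson 95% intervals over regions, on an axis that starts at 50%. Chromosome 4 has the highest covered share, 11.7% at 4.5 hpf and 10.8% at 4 hpf, and is the only one in which the 4.5 hpf bar is the higher.

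On chromosome 4 the difference lay in the long arm, the part from 28 Mb onward, known as rich in repeats and heterochromatin. Regions there spanned 8.28 Mb at 4.5 hpf against 7.55 Mb at 4 hpf, with median widths of 2757 bp at 4.5 hpf and 1493 bp at 4 hpf, and 8.36% of the arm's 4.5 hpf regions were fused. In the outermost 1 Mb at both ends of the other chromosomes and at the start of chromosome 4, 4.64 Mb were listed at 4.5 hpf against 5.47 Mb at 4 hpf, a ratio of 0.848, and 2.79% of its regions were fused. Everywhere else 53.8 Mb were listed at 4.5 hpf against 58.4 Mb at 4 hpf, a ratio of 0.922. The arm kept more of its narrow regions than the chromosome ends. Of regions under 500 bp, 30.5% were found again on the arm (25.4 to 36.1), 14.3% at the chromosome ends (10.1 to 19.9) and 22.8% elsewhere (21.5 to 24.2). At 2 to 5 kb the shares were 86.5% on the arm, 88.3% at the ends and 90.3% elsewhere, so the arm did not keep more of its wider regions.

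In windows of 1 Mb, coverage at 4.5 hpf was lower than at 4 hpf in 760 of 1034 windows (73.5%) and higher in 274. The median ratio was 0.913. Few windows differed by 1.5-fold or more, with 33 lower at 4.5 hpf (3.19%) and 7 higher (0.677%). From 3.5 to 4 hpf no window was lower by that much and 203 were higher. The ratio was much the same in sparsely and densely covered windows. Its median was 0.917 in windows covered under 2% at 4 hpf and 0.916 in those covered at least 10%. The 3 windows with the largest difference downward, chosen after their values were seen, lay on chromosomes 7, 25 and 2. The window from 1 to 1000000 on chromosome 7 held 26.1% at 4.5 hpf against 31.5% at 4 hpf. That from 26000001 to 27000000 on chromosome 25 held 19.9% in the later list against 25.1% at 4 hpf, and that from 14000001 to 15000000 on chromosome 2 held 25.4% at 4.5 hpf against 30.6% at 4 hpf. The 3 with the largest difference upward all lay on the long arm of chromosome 4. The first of them, 59000001 to 60000000, had 8.003%, 14.8% and 19.3% of its bases listed at 3.5, 4 and 4.5 hpf.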

How the data were processed

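Per the labels, H3K9me3 CUT&RUN libraries were made from zebrafish embryos, and HOMER, STAR, bedtools, Picard, SAMtools and Trim Galore appear in the submitters' processing notes. The caller, the genome build and the way replicates were combined were not given in the sources used here. Positions are taken from the lists with the first base as 1, and no gene or sequence is given. By their values, the deposited columns include a score capped at 1000, a p-value and a signal, none of which filtered regions in the main comparison. The authors' deposited signal is used only within one list. Sequence depth is unknown.

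Regions on 19 chromosomes were merged where they touch and classified by overlap in Python 3.11.15 with NumPy 2.4.6 and pandas 2.3.3, after the procedure was tested on simulated data. Named regions were the 5 with the most earlier regions beneath (fused), the 5 widest (lost, new), the 5 with the largest change in bp (singly matched) and the 3 with the most pieces (split), at most 1 per 1 Mb window in each class. There is 1 list per time, so no test was made. Members, classes and named sets were chosen with earlier results of these data known. IgG libraries and the confirmation experiment were not analysed here.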

Additional observations from a re-analysis of the deposited data

Results flagged for a closer look

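Regions that no comparison above used were also listed. Unplaced scaffolds held 1367 regions at 4.5 hpf and 1808 at 4 hpf. Chromosomes 1 and 10 to 14 held 5995 regions at 4.5 hpf and 10067 at 4 hpf after merging. They are named only because they lie outside the chromosomes compared. No control list was analysed here.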

How the results depend on the processing

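All alternatives were planned. Of 90 alternative values, 41 kept their direction and stayed within 1.5 times or within the counting interval, 46 moved and 3 turned round. Values follow in the order share of 4 hpf regions found again, share of 4.5 hpf regions new and share of 4 hpf regions under a fused one, which were 60.3%, 16.0% and 4.59%, then, where they moved, the number fused (817) and the share of singly matched regions widened (15.9%). An overlap of at least 50% of the shorter region gave 59.6%, 17.0% and 3.99%. Joining regions within 1000 bp gave 60.9%, 15.4% and 3.92%, and within 2000 bp 63.1%, 14.5% and 3.14%, with 487 fused and 14.7% widened. Joining within 500 bp moved only the share under a fused region, to 3.38%. The 50% of each list with the lowest deposited p-values gave 56.0%, 20.2% and 1.23%, with 114 fused. Equal list sizes were reached before merging, by cutting the 4 hpf list alone to 25986 deposited regions. After merging 24784 were left at 4 hpf, against 25986 at 4.5 hpf. This setting gave 68.0%, 36.0% and 3.41%, with 410 fused and 17.96% widened. It put 25.5% of the gained length in regions over an earlier one (69.4%). Regions named primary gave 23.4%, 14.4% and 0.270%, with 16 fused, 15.1% widened and a covered length of 0.369 times that at 4 hpf. Regions of at least 1000 bp gave 77.0% and 19.6%, with 437 fused and 10.004% widened. That setting drops narrower regions from both lists, so a region whose only counterpart is narrower counts as lost or new by construction. In the full lists, new regions were 13.3% of the 4.5 hpf regions of 1 to 2 kb. They were 4.47% at 2 to 5 kb and 0.628% at 5 to 10 kb. All 25 chromosomes gave 59.2%, 17.0% and 6.71%, with 1428 fused and 18.2% widened, and chromosomes 1 and 10 to 13 alone 61.8%, 21.7% and 16.0%, with 29.8% widened. Without chromosome 4 the values were 59.7% found again, 3.84% under a fused region and 15.1% widened. A fold of 1.2 gave 31.3% widened and a fold of 2 gave 6.65%. The covered length turned to 1.02 with regions of at least 1000 bp, 1.60 with equal list sizes and 1.25 on chromosomes 1 and 10 to 13, against 0.935. With equal list sizes the cut of the 4 hpf list sets the direction by construction, and for the rest the cause was not tested. The median width was larger at 4.5 hpf under every setting.

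No paired analysis was possible because each time point is 1 pooled list, and for the same reason no replicate was left out. Read depth is unknown, so a shorter list cannot be told apart from fewer reads, and no detection limit is given.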
